A study of Mus musculus with 6 samples.

Results

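Hepcidin and its regulators of the bone morphogenetic protein (BMP) and SMAD pathway were examined as 10 genes chosen by name: the hepcidin genes Hamp and Hamp2, the ligand genes Bmp2 and Bmp6, the BMP-binding protein gene Bmper, the iron-sensing genes Tfr2 and Hfe, the protease gene Tmprss6, and the SMAD target genes Id1 and Smad7. They are 10 of the 55536 genes counted, and all 10 were among the 15589 genes abundant enough to be tested. Bmper was so only through the genotype in which it was higher. The RNA came from livers of mice after a fast of 14 h, in 3 wild-type (WT) samples and 3 samples labelled as knockouts of CREBH (CREBH-KO). CREBH is a liver transcription factor encoded by Creb3l3. All 6 samples were fasted, so no fed state was compared. The labels give neither strain, sex nor age, and the deleted exons are not named. They describe independent samples but do not tie each to its own animal, so p-values measure only the spread between these samples. Counts in genes ranged from 28106243 to 39288819 per library. For CREBH-KO 2 and CREBH-KO 3 the labels state that the file of first reads was lost, and results were also computed without these libraries.

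Hepcidin is a peptide hormone that hepatocytes secrete and that blocks the iron exporter ferroportin, so that less iron enters the blood. Its transcription is driven by BMP ligands, chiefly from sinusoidal endothelial cells, which act through receptors and the co-receptor hemojuvelin on the hepatocyte and through SMAD1, SMAD5 and SMAD4. A separate input runs from interleukin-6 through STAT3 during inflammation. The same BMP signal also raises Id1 and the feedback inhibitors Smad6 and Smad7, which are commonly read as markers of pathway activity. CREBH itself is known from earlier work as a factor that can bind and activate the hepcidin promoter.

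Mice carry a pair of hepcidin genes that lie next to each other, and their sequences matter here because reads have to be told apart between them and because their promoters differ in a BMP element. Hamp (ENSMUSG00000050440) occupies 30942368 to 30944032 of chromosome 7, minus strand, and Hamp2 (ENSMUSG00000056978) on the same strand from 30922372 to 30924681 (GRCm38), with 17686 bases between them. The 250 bases before the RefSeq transcription start (GRCm38.p6, minus strand) are printed 5′ to 3′, at chr7:30944030-30944279 for Hamp and chr7:30924182-30924431 for Hamp2. Positions of patterns are counted from these RefSeq starts, which differ from the gene bounds above, taken from GENCODE. The Hamp2 window lies within the GENCODE bounds of Hamp2, which reach 30924681, and the Hamp window overlaps the end of Hamp at 30944032. Capitals mark matches to GGCGCC, the core of the BMP-responsive element described for hepcidin promoters, and to TTCNNNGAA, the pattern that STAT factors recognise.
Hamp promoter: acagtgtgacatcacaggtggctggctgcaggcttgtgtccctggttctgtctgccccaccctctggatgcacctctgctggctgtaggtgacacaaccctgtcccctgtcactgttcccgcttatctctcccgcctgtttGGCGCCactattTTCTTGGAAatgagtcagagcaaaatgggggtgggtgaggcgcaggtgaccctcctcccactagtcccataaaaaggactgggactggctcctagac
Hamp2 promoter: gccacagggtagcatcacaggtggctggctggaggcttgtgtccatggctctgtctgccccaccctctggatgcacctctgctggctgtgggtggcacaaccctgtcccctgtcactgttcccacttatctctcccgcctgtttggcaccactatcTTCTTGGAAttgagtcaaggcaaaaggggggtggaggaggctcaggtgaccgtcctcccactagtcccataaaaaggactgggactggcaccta

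The windows were identical at 227 of 253 aligned positions (89.7%). Both hold a STAT pattern, TTCTTGGAA, which spans 97 to 89 bases before the start in Hamp and 94 to 86 in Hamp2. Only the Hamp window holds GGCGCC, from 109 to 104 bases before the start. The stretch of Hamp2 aligned with it reads GGCACC, a difference of G4A counted from the 5′ end of the Hamp element. Among 32851 such windows of mouse genes, 9.59% hold GGCGCC and 7.02% hold TTCNNNGAA on either strand. Exact matches to the CREB-type elements TGACGTCA and TGACGTGG (both strands) were found in neither hepcidin window, and they occur in 1.55% and 0.563% of all windows. Near matches, such as tgacatca in the Hamp window, were not sought, so CREB-like sites may lie there. The windows of Bmper, Hfe and Tfr2 hold none of the patterns searched, which also included the E-box CACGTG (6.02% of windows), and that of Bmp6 holds 1 E-box. The promoter table has entries for 6 of the 10 genes.

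The coding sequences of Hamp and Hamp2 were identical at 239 of 255 positions (93.7%). Most of the differences fall in the last 25 codons before the stop, which encode the mature hormone. These 75 bases are printed 5′ to 3′ on the coding strand from the GENCODE transcripts, with the 14 bases that differ in capitals.
Hamp mature region: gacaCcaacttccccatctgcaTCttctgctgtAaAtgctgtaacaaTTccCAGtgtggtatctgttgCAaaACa
Hamp2 mature region: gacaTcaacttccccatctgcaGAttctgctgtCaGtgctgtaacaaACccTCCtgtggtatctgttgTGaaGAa

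Of the stretches of 50 bases in the Hamp transcript, 16.6% also occur unchanged in a Hamp2 transcript. This share was 3.87% for stretches of 75 bases and 0% for stretches of 100 bases. The length of the reads is not given in the sources used here. Reads placed at several sites were set aside by the counting, so Hamp and Hamp2 counts are uncertain to that extent.

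The question put to the data was how expression of these genes differs between fasted livers of the WT and CREBH-KO genotypes. Creb3l3 checked the labels: it fell from 486 ± 16.6 CPM (read counts scaled to library size with TMM factors; SD, n = 3) in WT to 49.6 ± 6.79 in CREBH-KO, 10.2% of the WT level, with no overlap between the groups. Across all genes tested, 10.4% passed edgeR's quasi-likelihood test (adjusted p under 0.05 by Benjamini-Hochberg), 3.91% upwards and 6.46% downwards. Upward calls made up 37.7% of all calls with TMM scaling and 52.8% with library size alone. The 12 hepatocyte marker genes had summed levels of 81355 to 96720 CPM in WT and 86501 to 94243 CPM in CREBH-KO. Of these, Cyp2e1 fell (log2 fold change -1.06) and Arg1 rose (0.46).

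Of the 10 genes, 3 rose in CREBH-KO, 0 fell, and 7 did not pass the test (0 fell also in DESeq2 and limma-voom, and 0 of the 7 had an unadjusted p under 0.05). The risers were Hamp, Hamp2 and Bmper, and these were also the 3 genes whose libraries did not overlap between the genotypes, as was the case for 30.6% of all genes tested. The median log2 fold change of the 10 genes was -0.04, against 0.02 over all genes tested. The 7 others had log2 fold changes from -0.28 to 0.08. The count of 3 was the same when any 1 library was left out and under each other normalisation, filter and test tried, and it was 2 without CREBH-KO 2 and CREBH-KO 3.

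**Figure D1:**
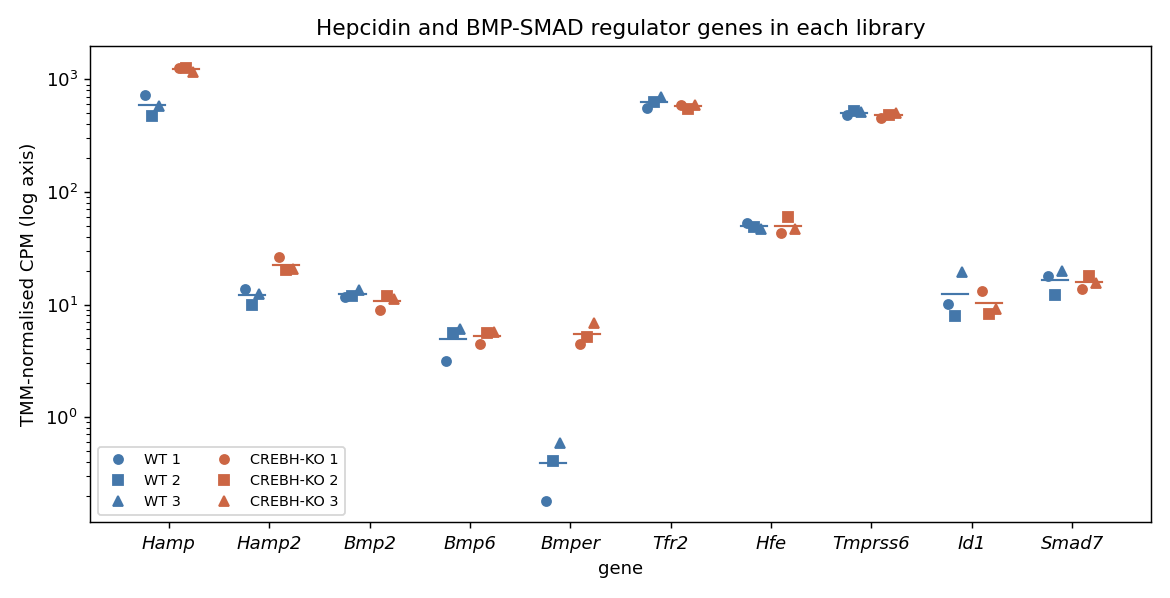
TMM-normalised CPM on a log axis for the 10 genes; each point is 1 library (WT 1 to 3 and CREBH-KO 1 to 3) and the line is the group mean. The CREBH-KO points of Hamp, Hamp2 and Bmper lie above all WT points, and the points of the other 7 genes overlap.

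Hamp, the gene of the iron hormone itself, was higher in all 3 CREBH-KO libraries. Its level was 732, 477 and 576 CPM in WT 1, 2 and 3, and 1275, 1257 and 1165 CPM in CREBH-KO 1, 2 and 3. The WT libraries spread over 1.53-fold and the CREBH-KO libraries over 1.09-fold, and the lowest CREBH-KO library stood well above the highest WT library. The means were 595 ± 128 and 1232 ± 58.8 CPM (SD, n = 3 each), a log2 fold change of 1.05 ± 0.14 (SE, 95% interval 0.73 to 1.37; edgeR's quasi-likelihood test, adjusted p = 0.00274), or 2.07-fold. With CREBH-KO 1 alone set against WT, the log2 fold change was 1.08 and the adjusted p 0.0580.

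Hamp2, whose peptide is related to hepcidin but is not known to act on iron in the same way, moved alongside. It stood at 13.8, 9.86 and 12.5 CPM in WT 1, 2 and 3 and at 26.7, 20.1 and 20.7 CPM in CREBH-KO 1, 2 and 3. The groups did not overlap, and WT 2 was the lowest library for both hepcidin genes. Its log2 fold change was 0.90 ± 0.16 (SE, n = 3, edgeR adjusted p = 0.00789), or 1.87-fold. Of the exonic bases of Hamp2, 15.3% lie within the antisense lincRNA gene Gm44662. With the strand setting unknown, it cannot be told whether reads there were counted for Hamp2 or set aside as lying in both genes.

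Hamp2 made up a small part of the reads of the hepcidin pair in both genotypes. Its share of the summed Hamp and Hamp2 counts was 1.86%, 2.02% and 2.12% in WT 1, 2 and 3 and 2.05%, 1.57% and 1.75% in CREBH-KO 1, 2 and 3. The groups overlapped, and the difference of the means was -0.21 percentage points (exact permutation test over samples, two-sided, p = 0.30, where 3 against 3 cannot go below 0.10). With the counts of both genes summed, the log2 fold change was 1.05. Whether Hamp reads wrongly placed at Hamp2 add to the Hamp2 counts was not tested, so its rise may not be separate from that of Hamp.

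Bmp2 and Bmp6 encode the endothelial ligands that carry the iron signal to hepatocytes, and neither passed the test. Bmp2 stood at 11.6, 11.8 and 13.5 CPM in WT and 8.87, 11.9 and 11.2 CPM in CREBH-KO 1, 2 and 3. Bmp6 stood at 3.18, 5.63 and 6.08 CPM in WT and 4.45, 5.54 and 5.75 CPM in CREBH-KO 1, 2 and 3. Both sets of values overlapped, and WT 1 was the low library for Bmp6. The log2 fold change was -0.20 (95% interval -0.52 to 0.12; edgeR adjusted p = 0.416) for Bmp2. For Bmp6 it was 0.08 (95% interval -0.48 to 0.65; edgeR adjusted p = 0.871), an interval that spans 0.72-fold to 1.57-fold. Without WT 1 the value for Bmp6 turned to -0.17. Of the exonic bases of Bmp6, 5.74% lie within Txndc5 on the opposite strand.

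Markers of sinusoidal endothelial cells, the known source of these ligands, had summed levels of 300.05 to 378 CPM in WT and 311 to 341 CPM in CREBH-KO. Of 15 such markers 0 passed in edgeR and 1 in DESeq2, and 5 had an unadjusted p under 0.05. These 5 moved in both directions. Stab2, Clec4g, Dnase1l3 and Ptprb had log2 fold changes of -0.25, -0.34, -0.50 and -0.28, and Lyve1 had 1.24. The part of these cells in the values of Bmp2 and Bmp6 was not tested. In whole liver, fewer cells of a type and less RNA per cell cannot be told apart.

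Bmper, a secreted protein that binds BMPs and can either block or promote their signalling, had the steepest rise of the 10 genes. It occupies 23223076 to 23485200 of chromosome 9, plus strand (GRCm38). It was close to the limit of detection in WT, with 7, 13 and 18 counts in WT 1, 2 and 3, and it had 151, 153 and 226 counts in CREBH-KO 1, 2 and 3. In normalised terms these were 0.181, 0.407 and 0.585 CPM against 4.42, 5.17 and 6.92 CPM. Every CREBH-KO library thus exceeded every WT library several times over. WT 1 was below the minimum level set for testing, so Bmper was tested only because of its CREBH-KO counts. The log2 fold change was 3.84 ± 0.38 (SE, n = 3; 95% interval 2.99 to 4.69; edgeR adjusted p = 5.70e-04), or 14.3-fold. Without WT 1 it was 3.45 and without WT 3 it was 4.24. Of 15 markers of stellate cells and fibroblasts, 4 rose (Acta2, Rgs5, Colec11 and Dcn), 0 fell and 11 did not pass, beside 3.91% rising among all genes tested. Their median log2 fold change was 0.56, but Lrat had -0.08, Reln 0.08 and Ecm1 0.15. The summed level of the 15 markers was 275 to 331 CPM in WT and 365 to 414 CPM in CREBH-KO. None of these markers was at 0 in all libraries. Their part in the result for Bmper was not tested.

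Tfr2 and Hfe act upstream of hepcidin as sensors of transferrin-bound iron on the hepatocyte. Tfr2 stood at 560, 632 and 699 CPM in WT and 590, 551 and 588 CPM in CREBH-KO 1, 2 and 3. Hfe stood at 53.4, 48.9 and 46.8 CPM in WT and 43.2, 59.5 and 47.3 CPM in CREBH-KO 1, 2 and 3. The genotypes overlapped for both genes. The log2 fold change was -0.13 (95% interval -0.35 to 0.09; edgeR adjusted p = 0.451) for Tfr2 and 0.01 (95% interval -0.27 to 0.28; edgeR adjusted p = 0.977) for Hfe. The sign for Hfe turned with the normalisation, being -0.00051 with RLE factors.

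Tmprss6, which encodes the membrane protease that restrains hepcidin by cleaving hemojuvelin, did not pass. It stood at 480, 529 and 513 CPM in WT and 458, 480 and 503 CPM in CREBH-KO 1, 2 and 3. The log2 fold change was -0.08 (95% interval -0.26 to 0.10; edgeR adjusted p = 0.583), and the groups overlapped.

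Id1, an inhibitor of transcription factor binding, and Smad7, an inhibitory SMAD, are targets of the same signal and did not pass. Id1 stood at 10.01, 7.89 and 19.3 CPM in WT and 13.2, 8.25 and 9.18 CPM in CREBH-KO 1, 2 and 3. Smad7 stood at 17.8, 12.2 and 19.9 CPM in WT and 13.8, 17.9 and 15.5 CPM in CREBH-KO 1, 2 and 3. Library WT 3 was the highest of all 6 for both genes. Id1 had a log2 fold change of -0.28 (95% interval -0.98 to 0.43; edgeR adjusted p = 0.632), a wide interval that includes a 1.35-fold rise. Smad7 had a log2 fold change of -0.08 (95% interval -0.48 to 0.32; edgeR adjusted p = 0.814). Without WT 3 the values turned to 0.19 and 0.06.

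**Figure D2:**
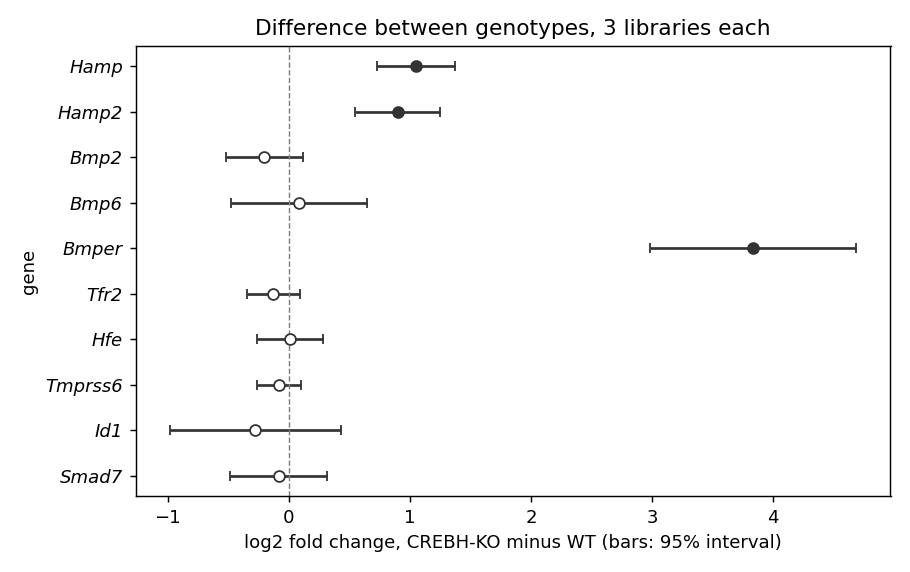
Log2 fold change of CREBH-KO against WT for the 10 genes, with 95% intervals from the fit over all genes (3 libraries per genotype); filled points passed the test. Bmper (3.84), Hamp (1.05) and Hamp2 (0.90) lie above 0 and the intervals of the other 7 genes include 0.

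Since passing in one gene and not in another is no test of a difference, the level of Hamp was set against 6 BMP target genes within each library, a comparison added after the values were seen. These were picked from 13 tested targets, so the ratios do not speak for BMP targets in general. The targets left out did not pass. Their log2 fold changes were 1.02 (Hey1), 0.48 (Id4), 0.32 (Skil), 0.31 (Bambi), 0.25 (Ski), -0.03 (Smurf2) and -0.36 (Smurf1). The log2 ratio of Hamp to Smad7 was 5.36, 5.29 and 4.86 in WT 1, 2 and 3 and 6.53, 6.14 and 6.24 in CREBH-KO 1, 2 and 3. That of Hamp to Id1 was 6.19, 5.92 and 4.90 in WT and 6.59, 7.25 and 6.99 in CREBH-KO 1, 2 and 3. In both, each CREBH-KO library was above each WT library, and the same held for Smad6, Id2 and Id3. Hamp by itself already separated the genotypes, with 1165 CPM in CREBH-KO 3, its lowest CREBH-KO library, and 732 CPM in WT 1, its highest WT library. Separation of the ratios therefore in part restates that of Hamp. The share of all genes whose ratio to Hamp would separate in the same way was not computed. The log2 ratios were higher in CREBH-KO by 1.27 for Id1, 1.13 for Smad7, 1.04 for Smad6, 0.83 for Id2 and 1.08 for Id3 (exact permutation test, two-sided, p = 0.10 each, the smallest 3 against 3 allows; 0.12 after Benjamini-Hochberg adjustment over 6). For Atoh8 the groups overlapped and the difference was 0.60 (exact permutation p = 0.20, adjusted 0.20). All 6 ratios share the Hamp values, so they are not independent of each other. Because the exact test cannot go below 0.10 here, none of the ratios could have passed the threshold used for single genes. The test therefore does not decide whether Hamp changed differently from these targets, and the ratios are a description only.

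**Figure D3:**
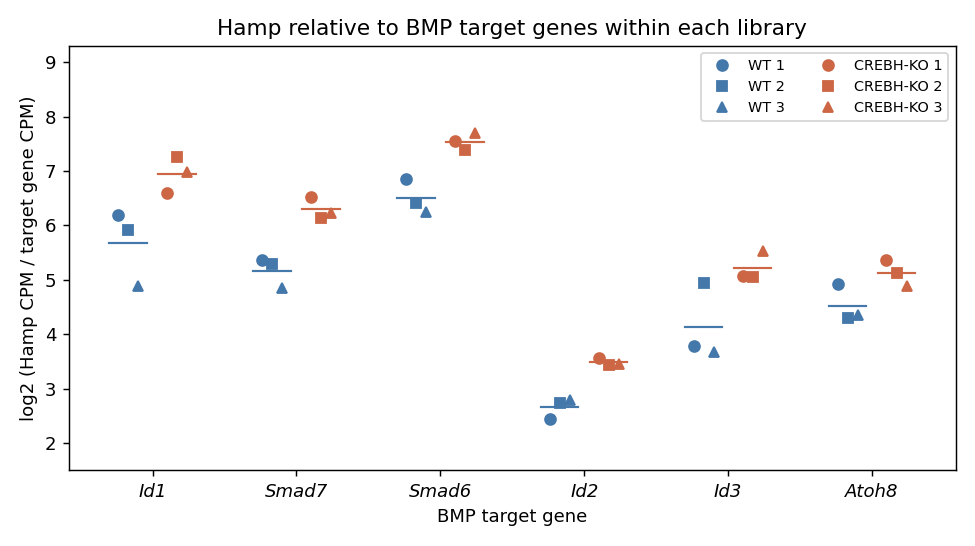
Log2 ratio of Hamp to each of 6 BMP target genes within a library; points are libraries and lines group means. CREBH-KO points lie above all WT points for Id1, Smad7, Smad6, Id2 and Id3 and overlap with WT for Atoh8.

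Per kilobase of exon, a scale on which levels of genes can be compared, the 10 genes kept 1 order in both genotypes. Hamp led with 1451 ± 313 CPM per kb in WT and 3005 ± 143 in CREBH-KO (SD, n = 3). Tmprss6 (151 ± 7.43 in WT) and Tfr2 (145 ± 16.0) followed about an order of magnitude lower, and their WT libraries overlapped. Hamp2 (20.7 ± 3.46), Hfe (13.9 ± 0.949) and Id1 (10.7 ± 5.26) came next in WT, where Hfe and Id1 overlapped. Smad7 (3.68 ± 0.872) and Bmp2 (3.45 ± 0.297) did not differ beyond their spread in either genotype. Bmp6 stood at 1.27 ± 0.400 CPM per kb in WT and 1.35 ± 0.180 in CREBH-KO. Bmper was last, at 0.0809 ± 0.0419 in WT, but at 1.14 ± 0.265 in CREBH-KO its libraries overlapped with those of Bmp6.

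Lists of other genes of the pathway held 125 genes, of which 106 were tested: 11 rose, 10 fell and 85 did not pass, beside the 10.4% called among all genes tested. Their median log2 fold change was 0.10. The list medians ran from -0.10 (SMAD transducers) to 0.29 (other ligands), against 0.02 over all genes tested. Of the 11 receptors and co-receptors tested, 0 passed in edgeR's quasi-likelihood test, in DESeq2 and in limma-voom, and 1 had an unadjusted p under 0.05.

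Among the receptors, Hjv (hemojuvelin, the BMP co-receptor of hepatocytes) had a log2 fold change of -0.03, Acvr1 of -0.08 and Bmpr2 of -0.10. Bmpr1a, the type I receptor for BMP2, had 0.25 (95% interval 0.04 to 0.46; edgeR adjusted p = 0.123). The signs for Hjv and Acvr1 turned under other settings. Among 6 SMAD transducers, Smad9, which encodes SMAD8, fell from 15.2 ± 2.09 to 8.47 ± 1.52 CPM (SD, n = 3; log2 difference -0.84 with SE 0.16, edgeR adjusted p = 0.0129), a call lost without WT 2 (adjusted p = 0.0606). Smad1 (-0.19), Smad5 (0.15) and Smad4 (-0.01) did not pass.

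Among 16 tested ligands of the BMP and TGF-beta family, 2 rose and 2 fell, beside 10.4% called among all genes tested. Gdf15, a stress hormone, rose 3.73-fold, and Tgfb3 rose from 0.437 ± 0.157 to 1.45 ± 0.147 CPM (log2 difference 1.74, edgeR adjusted p = 0.0188). In WT 1 Tgfb3 was below the minimum level set for testing, so it was tested only because of its CREBH-KO counts. Inhbe, a hepatocyte gene for the activin E subunit, fell from 94.2 ± 35.8 to 23.3 ± 3.39 CPM (SD, n = 3; log2 difference -2.02 with SE 0.24, edgeR adjusted p = 0.00143). Bmp7 fell by 1.56 on the log2 scale (edgeR adjusted p = 0.0240). Leaving out any of WT 1, WT 2, CREBH-KO 1 and CREBH-KO 3 ended the call of Bmp7 (adjusted p from 0.0512 to 0.0876), as did any of WT 2, CREBH-KO 2 and CREBH-KO 3 for Tgfb3 (0.0519 to 0.0679).

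Secreted and surface modulators of BMP signalling moved in both directions, with 2 rising and 3 falling of 13 tested (all genes tested, 10.4% called). Fst (follistatin), which traps activins and binds some BMPs, stood at 2.22, 1.44 and 0.878 CPM in WT and 22.2, 26.6 and 13.04 CPM in CREBH-KO 1, 2 and 3. It rose 13.4-fold with no overlap (log2 difference 3.74 with SE 0.35, edgeR adjusted p = 4.47e-04). The surface proteoglycan gene Gpc1 fell 15.6-fold, from 15.7 ± 5.91 to 0.997 ± 0.227 CPM. Kcp, which binds BMPs outside the cell, rose by 0.67, and Furin, a protease that matures BMP precursors and can cleave hemojuvelin, fell by 0.47 on the log2 scale. Leaving out any of WT 1, WT 2 and the CREBH-KO libraries 2 and 3 ended the call of Kcp, and any library but WT 1 that of Furin (adjusted p up to 0.140).

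Of 11 other SMAD feedback and BMP target genes tested, Atoh8 rose and 10 did not pass. Atoh8, a transcription factor gene induced by BMP signalling in hepatocytes, stood at 24.3, 24.1 and 28.0 CPM in WT and 31.1, 35.9 and 39.5 CPM in CREBH-KO 1, 2 and 3. The groups did not overlap, and the log2 fold change was 0.48 with an SE of 0.11 (edgeR adjusted p = 0.0269). Leaving out any of WT 1, WT 2 and the CREBH-KO libraries 2 and 3 ended the call (adjusted p from 0.0563 to 0.110). Smad6 (0.03), Id2 (0.19) and Id3 (-0.17) did not pass. Their 95% intervals as CREBH-KO over WT ran from 0.775-fold to 1.35-fold, 0.834-fold to 1.56-fold and 0.499-fold to 1.57-fold. Without WT 1, Id2 passed (log2 fold change 0.50, edgeR adjusted p = 0.0114).

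**Figure D4:**
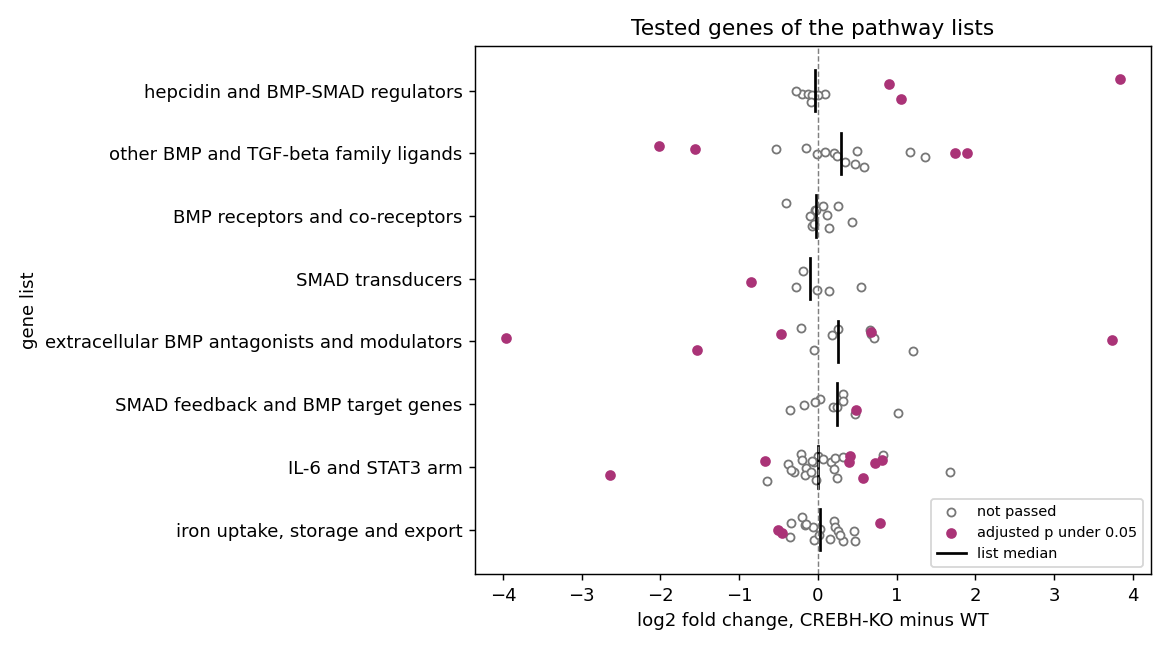
Log2 fold change of each tested gene in the 8 lists, with filled points for adjusted p under 0.05 and a bar at the list median; vertical scatter within a row has no meaning. The receptor row has no filled point, and the row of antagonists and modulators holds Fst (3.74) and Gpc1 (-3.96) at its ends.

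The list for the interleukin-6 and STAT3 arm, the inflammatory input to hepcidin, also holds acute phase plasma proteins. Of its 29 tested genes 5 rose, 2 fell and 22 did not pass, beside 3.91% rising and 6.46% falling among all genes tested. Haptoglobin (Hp) rose from 3156 ± 502 to 5574 ± 234 CPM (SD, n = 3; log2 difference 0.82 with SE 0.13, edgeR adjusted p = 0.00466). The haem scavenger hemopexin (Hpx) rose by 0.40, Itih3 by 0.58 and Apcs (serum amyloid P) by 0.73 on the log2 scale. Lbp, named after its value was seen, was the other riser (0.39). Leaving out WT 2 ended the calls of Hpx and Apcs (adjusted p = 0.150 and 0.0739), as did each of 3 other libraries. Orm3 fell 6.26-fold, and Cebpa, a hepatocyte transcription factor that activates hepcidin, fell from 580.02 ± 64.9 to 365 ± 21.5 CPM (SD, n = 3; log2 difference -0.67 with SE 0.10, edgeR adjusted p = 0.00390). Stat3 (0.07), its feedback target Socs3 (-0.03) and Saa1 (0.25) did not pass and overlapped between genotypes, and Il6ra had -0.65 (edgeR adjusted p = 0.217). Il6ra passed without WT 1 (-0.94, adjusted p = 0.0238) and when genes of low count were kept (adjusted p = 6.91e-04).

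Of 20 tested genes of iron uptake, storage and export, 1 rose and 2 fell, beside the 10.4% called among all genes tested. Hmox1, the haem-degrading enzyme, rose by 0.79 on the log2 scale. The importer gene Slc39a14 fell by 0.50, and Aco1, which encodes iron regulatory protein 1, fell by 0.45. These calls were lost without WT 2 for all 3 genes, and without other single libraries for each (adjusted p up to 0.140). Slc40a1, which encodes ferroportin, stood at 108, 105 and 100.3 CPM in WT and 114, 186 and 137 CPM in CREBH-KO 1, 2 and 3. Every CREBH-KO library was above WT, with a log2 fold change of 0.48 that did not pass (95% interval 0.13 to 0.82; edgeR adjusted p = 0.0853). Slc40a1 passed in DESeq2 (adjusted p = 0.0257), with no filter on low counts and without CREBH-KO 1. Its log2 fold change ran from 0.11 to 0.62 over the settings run. CREBH-KO 2 and CREBH-KO 3, whose file of first reads was lost, were its highest libraries. The ferritin heavy chain gene Fth1 had -0.36 (edgeR adjusted p = 0.0549; DESeq2 adjusted p = 0.00509) and the light chain gene Ftl1 0.21 (edgeR adjusted p = 0.397). The transferrin receptor gene Tfrc had 0.32 and the transferrin gene Trf 0.21, and neither passed (edgeR adjusted p = 0.119 and 0.232).

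The genes whose profile over the 6 libraries was nearest to that of Hamp were found by the root mean square difference of centred log2 CPM, among 12562 genes with a mean of at least 1 CPM. They were Gimap8 (0.135), Cyp4a14 (0.139), Socs5 (0.140), B230317F23Rik (0.150) and Cdpf1 (0.152), and Hamp2 came sixth (0.152). Cyp4a14, an omega-hydroxylase of fatty acids, was the nearest among 7636 genes with at least 10 CPM, where Hamp2 was next. It had 5298, 3861 and 4796 CPM in WT and 10295, 12469 and 10354 CPM in CREBH-KO 1, 2 and 3. These libraries share their genotype difference with Hamp, so the likeness is a description only. Hfe, the next of the 10 genes in this order, ranked 5753.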

How the data were processed

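Per the labels, liver RNA was sequenced in pairs of reads. The authors deposited raw read counts per gene, 1 file per library, and the sample titles name HTSeq. For aligner, genome build, strand setting and HTSeq version, nothing is given in the sources used here. The 55536 gene identifiers all matched GENCODE M21 (GRCm38), which supplied symbols, positions and exonic lengths. Rows for reads given to no gene (27.4% to 31.2% of listed reads; aligned to several places, 13.7% to 15.0%) were left out. Counts were fitted in R 4.3.3 with edgeR 4.0.16: filterByExpr (minimum count 10, total 15), TMM factors (0.967 to 1.05), and the quasi-likelihood test over 15589 genes without covariates, with Benjamini-Hochberg adjustment and a threshold of 0.05. The fit was tested on simulated data. The SE equals the size of the log2 difference over the root of the F value. Intervals are 95%. Alternatives used DESeq2 1.42.0, limma 3.58.1 (voom), other factors and filters, and left-out libraries. Libraries of 1 genotype differed by more than sampling noise (lowest chi-square over its degrees of freedom 16.9). Replicate numbers only name libraries.

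All 10 genes are named. From 7 pathway lists, up to 6 changed genes a list are named if the higher group reaches 1 CPM, largest change first, with a fixed set of receptors, transducers, targets and iron genes; 1 gene of the rule is not reported here. The 10 genes and the lists were chosen with earlier results of these data known. Promoter windows are from RefSeq (GRCm38.p6), and motifs were sought on both strands. Hjv is listed as Hfe2 in the annotation. Markers were counted for 7 cell types. Kupffer cell (11 tested) and erythroid (5) markers had 0 changed genes in edgeR (unadjusted p under 0.05 for 1 and 0, DESeq2 calls 1 and 0), other leukocytes had 1 of 4 (Ptprc, 1.18 on the log2 scale) and cholangiocytes 1 of 5 (Sox9, 0.96).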

Additional observations from a re-analysis of the deposited data

How the results depend on the processing

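Hamp, Hamp2 and Bmper kept their direction in every setting run. Of these genes, Hamp alone lost its call, and only without CREBH-KO 2 and CREBH-KO 3 (adjusted p = 0.0580). With 1 library left out, log2 fold changes ranged from 0.91 to 1.22 for Hamp, 0.76 to 1.00 for Hamp2 and 3.45 to 4.24 for Bmper, and 3 of the 10 genes were called each time. Over all genes, the 1616 calls became 658 to 1806 with 1 library left out, 2456 with no filter on low counts and 228 without CREBH-KO 2 and CREBH-KO 3. The 21 calls in the other pathway lists became 8 to 24 and, without those libraries, 3. The lowest of the counts with 1 library left out came without WT 2. With CREBH-KO 1 alone, its spread is assumed to be that of the WT libraries. Settings for the pathway lists, the genes outside the 10 and the Hamp ratios were chosen after seeing the data. The Hamp2 share differed by -0.34 to -0.0994 percentage points with 1 library left out and by 0.050 without CREBH-KO 2 and CREBH-KO 3. The genes nearest to Hamp shared 1 of 5 names between the minimum means of 1 and 10 CPM.

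Differences near 0 that did not pass also turned sign. With 1 library left out the ranges were -0.17 to 0.25 for Bmp6, -0.14 to 0.10 for Hfe, -0.52 to 0.19 for Id1, -0.27 to 0.06 for Smad7, -0.11 to 0.063 for Hjv, -0.19 to 0.066 for Acvr1, -0.092 to 0.024 for Smad4, -0.070 to 0.16 for Smad6, -0.55 to 0.15 for Id3, -0.12 to 0.19 for Stat3, -0.35 to 0.28 for Socs3 and -0.10 to 0.79 for Saa1. Hfe was -0.00045 in DESeq2, -0.00051 with RLE factors, -0.015 with no filter and -0.0085 in limma-voom. Upper-quartile factors and library size alone gave 0.0029 and 0.038 for Hjv, 0.020 and 0.059 for Smad4 and 0.0094 and 0.043 for Socs3. Without CREBH-KO 2 and CREBH-KO 3, values were -0.18 for Bmp6, -0.23 for Hfe, 0.073 for Id1, 0.091 for Hjv, 0.079 for Acvr1 and 0.43 for Socs3. The cause was not tested. No paired analysis was possible because the labels number no replicates within a genotype, and the numbers used here follow accession order and mark no pairing.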

Other observations

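The WT libraries did not share 1 order over the BMP target genes, a tally made after the values were seen. Of 13 tested target genes (Id1, Smad7 and the 11 others), WT 2 was the lowest WT library for 8 and WT 3 for 5. WT 2 was lowest for Id1, Id2, Id3, Smad6, Smad7, Atoh8, Bambi and Hey1, as it was for Hamp and Hamp2. WT 3 was lowest for Id4, Smurf1, Smurf2, Ski and Skil, and WT 2 was the highest WT library for Smurf1 and Ski. For Atoh8 the difference was small, with 24.3 CPM in WT 1 and 24.1 CPM in WT 2. It was also small for Bambi, with 2.35 CPM in WT 2 and 2.47 CPM in WT 3. Hey1 had only 12, 2 and 9 counts in WT 1, 2 and 3. The share of all genes with WT 2 lowest was not computed, so the tally cannot be read as particular to these targets. Id3 had a wide range, with 53.4, 15.5 and 44.9 CPM in WT 1, 2 and 3 (3.45-fold), followed by Id1 (2.45-fold) and Id2 (1.89-fold) among the targets compared with Hamp. With 3 libraries per genotype this is a description, and no test was made.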
